A study of Mus musculus with 21 samples.

Results

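The genes described here encode 10 enzymes and enzyme partners that write or erase DNA methylation and the Polycomb mark on histone H3 lysine 27: Dnmt1, Uhrf1, Dnmt3a, Tet1, Tet2, Tet3, Ezh2, Suz12, Eed and Kdm6b. They were matched by gene symbol and are 10 of the 15300 genes with at least 10 reads over all libraries. The RNA came from splenic CD4+ T cells of Tg4 Tiger Nr4a3-Tocky mice, isolated by flow sorting and sequenced from the 3′ ends of the transcripts. All groups, the control included, carried the Tg4 T cell receptor transgene, which recognises a myelin basic protein (MBP) peptide, the Tiger Il10-GFP reporter and the Nr4a3-Tocky reporter, in which Nr4a3 regulatory sequence drives a Timer protein that is blue when new and red once mature. The control group was not immunised, and the other mice were immunised under the skin, without adjuvant, with 4Y MBP peptide at 0.8 µg or at 80 µg and killed after 4 h, 12 h or 24 h. There were 7 groups of 3 mice. The sorting gate moved with time: cells positive for Blue but not Red were taken 4 h after immunisation, cells positive for both colours at 12 h, and cells that kept only Red at 24 h, so time and gate cannot be told apart. The sorting gate of the control is not given in the sources used here, so comparisons with the control may mix immunisation with gate. The age of the mice is not given there either, and both sexes were used.

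DNA methylation in mammals is copied to the new strand after replication by Dnmt1, which Uhrf1 recruits to hemimethylated CpG sites, and is laid down on unmethylated DNA by Dnmt3a. The Tet enzymes oxidise 5-methylcytosine and so start its removal. Ezh2 is the catalytic subunit of Polycomb repressive complex 2, which methylates lysine 27 of histone H3 and needs Suz12 and Eed for its activity, and Kdm6b removes that methylation. In CD4+ T cells these enzymes are known for their parts in keeping lineage genes silent or open as cells activate, divide and differentiate.

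Library totals ranged from 2352800 to 6244279 counts, and the floor of 3 counts was 0.48 to 1.28 CPM (counts relative to the library total). The most counted gene, Gm42418, took 17% to 27.8% of a library. All 9 CD4+ T cell markers were detected, with summed levels of 3661 to 3972 CPM in the control, 1817 to 2246 CPM at 4 h, 1697 to 1936 CPM at 12 h and 3197 to 3739 CPM at 24 h. The 6 B cell markers summed to 379 to 403 CPM in the control, 31.8 to 59.5 CPM at 4 h, 33.5 to 85.3 CPM at 12 h and 277.5 to 399 CPM at 24 h, most of it Ighm in the control and at 24 h. The other 5 B cell markers together reached at most 71.7 CPM. The 2 regulatory T cell markers, Foxp3 and Ikzf2, summed to 46.7 to 100.3 CPM in the control and to 16.6 to 596 CPM over the immunised groups, and the CD8+ T cell markers Cd8a and Cd8b1 to 13.1 to 51.3 CPM over all groups. Myeloid, dendritic, natural killer and platelet markers summed to at most 31.2, 2.46, 4.49 and 0.85 CPM, with Cd14, Xcr1, Siglech, Ncr1 and Ppbp below 10 reads over all libraries, and erythroid markers to between 5.31 and 212 CPM. Values below are counts divided by DESeq2 size factors (normalised counts), and a log2 fold change is the shrunken estimate of DESeq2. A gene rose or fell where its adjusted p was under 0.05, and was called where the log2 fold change was also beyond 1 in either direction.

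In the mouse assembly GRCm38, counted from 1, Dnmt1 lies on chromosome 9 (20907209 to 20959888, minus strand), Uhrf1 on chromosome 17 (56303321 to 56323486, plus), Dnmt3a on chromosome 12 (3806007 to 3914443, plus) and Tet1 on chromosome 10 (62804570 to 62908996, minus). Tet2 lies on chromosome 3 (133463679 to 133545139, minus), Tet3 on chromosome 6 (83362373 to 83459084, minus) and Ezh2 also on chromosome 6 (47530139 to 47595341, minus). Suz12 lies on chromosome 11 (79993106 to 80034123, plus), Eed on chromosome 7 (89954654 to 89980983, minus) and Kdm6b on chromosome 11 (69398508 to 69413675, minus). No member shared exon sequence with another gene on its own strand, and 6 overlapped an exon of a gene on the opposite strand. Those opposite-strand genes held 1 to 2 reads over all libraries beside Dnmt3a, Tet2, Ezh2 and Kdm6b, 33 reads beside Suz12 and 161 reads beside Eed, where no library held more than 19.

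Promoters are shown for Dnmt1, Uhrf1, Ezh2 and Suz12, which were all above the control at 12 h and 24 h at both doses. E2F factors, whose motif was searched, are known regulators of DNA replication genes. RefSeq promoter windows on GRCm38.p6, 250 bases before to 50 after a start site, were matched for 9 members with 14 start sites. Both strands were searched for the E2F-type octamers TTTGGCGC and TTTCCCGC, which do not overlap each other, and for CCAAT, the core of the NF-Y site. An octamer stood in 1 window each of Dnmt1, Ezh2 and Suz12 and in 1.56% of the 32851 windows of all genes. CCAAT stood in windows of Dnmt1, Uhrf1, Tet3, Ezh2, Suz12 and Eed and in 37.4% of all windows. A match describes letters only. In the sequences, printed 5′ to 3′ on the strand of the gene, capitals mark these motifs (CCAAT reads as ATTGG on the other strand). The octamer of Dnmt1 began 34 bases after the start site in the start site farthest downstream, that of Ezh2 began 4 bases after the start, and that of Suz12 began 219 bases before it. For Dnmt1, the 250 bases before that start (chr9:20952624-20952873, minus strand) and the 24 bases around the octamer (chr9:20952575-20952598) are shown. Both stretches lie downstream of start sites 1 and 2 of Dnmt1, so they are promoter sequence only for the start site farthest downstream. The windows of start sites 1 and 2 held no octamer, and that of start site 2 held no CCAAT. The second start site of Uhrf1 (chr17:56304063-56304342, plus strand), the promoter of Ezh2 (chr6:47595001-47595280, minus strand) and the outer part of that of Suz12 (chr11:79992856-79992975, plus strand) follow.
Dnmt1 promoter: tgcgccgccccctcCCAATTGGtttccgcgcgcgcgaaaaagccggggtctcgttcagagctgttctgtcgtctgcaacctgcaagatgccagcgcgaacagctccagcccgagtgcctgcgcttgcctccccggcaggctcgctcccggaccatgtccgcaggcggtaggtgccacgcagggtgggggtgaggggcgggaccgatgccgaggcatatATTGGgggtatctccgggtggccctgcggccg
Dnmt1 octamer: gggcagcgTTTGGCGCgggctgtg
Uhrf1 promoter: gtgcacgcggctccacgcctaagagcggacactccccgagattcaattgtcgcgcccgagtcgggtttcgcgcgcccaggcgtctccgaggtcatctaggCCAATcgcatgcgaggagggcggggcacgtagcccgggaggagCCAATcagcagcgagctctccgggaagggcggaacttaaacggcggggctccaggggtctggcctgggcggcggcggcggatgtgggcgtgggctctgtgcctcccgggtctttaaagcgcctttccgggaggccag
Ezh2 promoter: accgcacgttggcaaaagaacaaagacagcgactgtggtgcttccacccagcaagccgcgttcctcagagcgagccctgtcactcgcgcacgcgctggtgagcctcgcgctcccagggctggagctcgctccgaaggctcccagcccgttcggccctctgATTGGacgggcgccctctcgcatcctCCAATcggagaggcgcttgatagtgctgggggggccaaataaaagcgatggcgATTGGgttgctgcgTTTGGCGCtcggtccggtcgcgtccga
Suz12 promoter: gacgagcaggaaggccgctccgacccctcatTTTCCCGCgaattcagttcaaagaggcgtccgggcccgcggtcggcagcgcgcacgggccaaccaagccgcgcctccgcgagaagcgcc

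**Figure D1:**
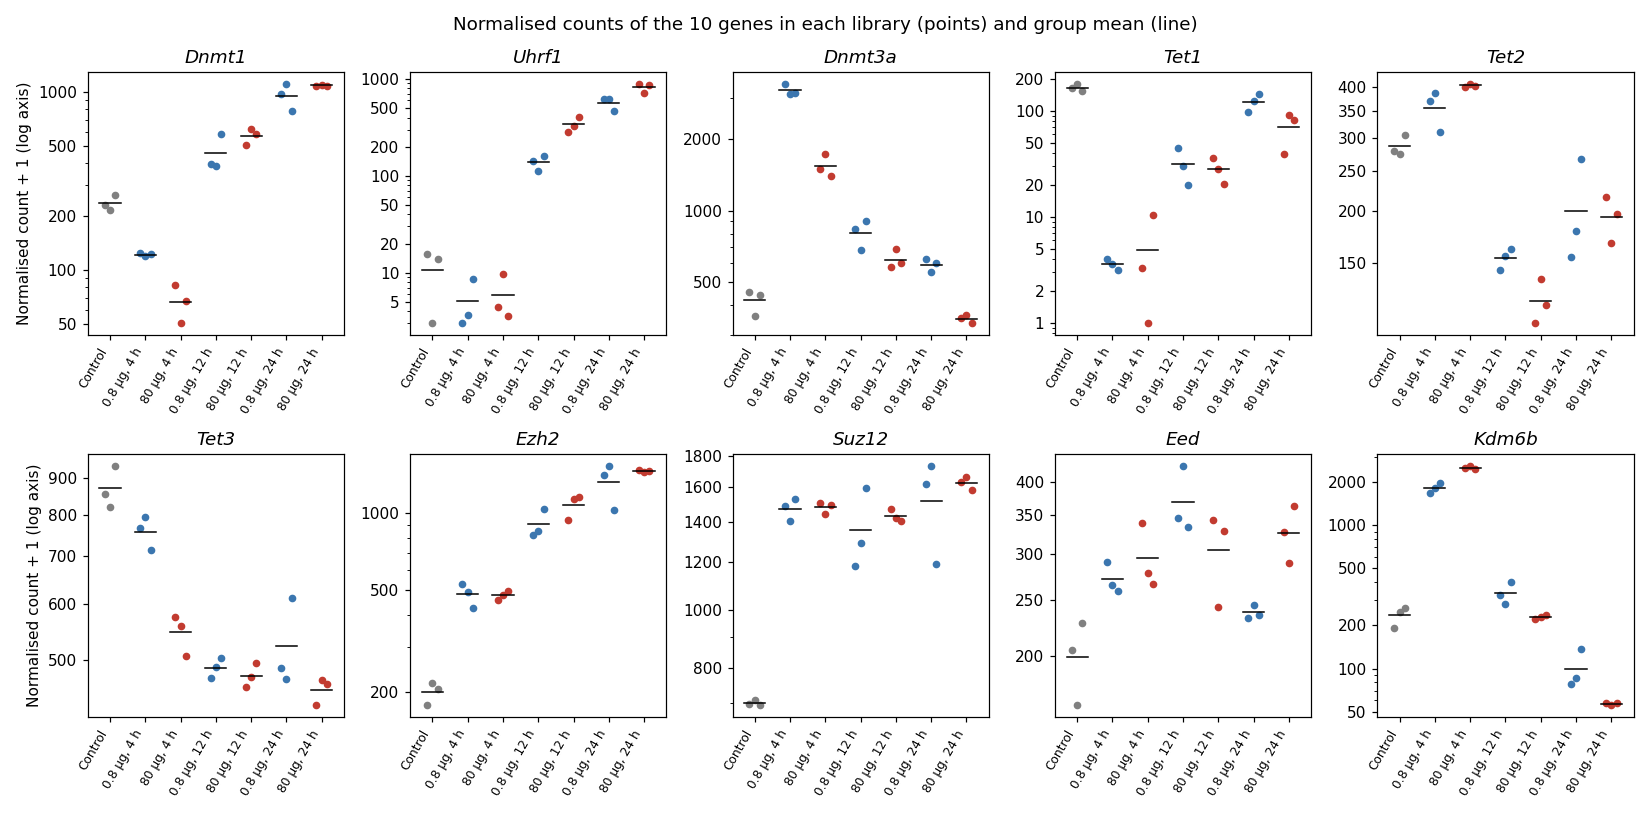
Normalised counts plus 1 (log axis) of the 10 genes in each library by group, grey for the control, blue for 0.8 µg and red for 80 µg, with group means as lines. Dnmt3a and Kdm6b peak at 4 h, Dnmt1, Uhrf1 and Ezh2 are highest at 24 h, and Tet1 is nearly absent at 4 h.

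Ordered by their means, the 7 groups of a gene have 6 pairs of neighbours, and the ranges overlapped in 1 of them for Tet2 and Kdm6b, 2 for Dnmt1 and Uhrf1, 3 for Dnmt3a and Tet1, 4 for Tet3, Ezh2 and Eed and 5 for Suz12. Where a fitted comparison covers such neighbours, adjusted p was above 0.05 in each, except for Dnmt3a between the doses at 12 h, which passed (adjusted p = 0.0219). Lack of overlap was common: between doses the ranges did not overlap for 19% to 28.7% of all genes tested. Against the control this share was 48.3% to 63.9%. These shares belong to the fitted comparisons and not to neighbours ordered by mean.

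Of the maintenance pair, Dnmt1 fell at 4 h, Uhrf1 was low in the control and at 4 h, and both rose to 24 h. Dnmt1 had 231, 216 and 264 normalised counts in the control libraries, 123, 119 and 122 with 0.8 µg at 4 h and 81.0, 49.4 and 66.0 with 80 µg at 4 h. It then had 395, 381 and 578 with 0.8 µg and 501, 623 and 577 with 80 µg at 12 h, and 972, 1112 and 780 with 0.8 µg and 1083, 1102 and 1085 with 80 µg at 24 h. Every 4 h library lay below every control library, and every 12 h and 24 h library lay above. Against the control the 4 h log2 fold change of Dnmt1 was -0.95 (SE 0.18, adjusted p = 2.13e-07) at the low dose and -1.84 (SE 0.19, adjusted p = 3.51e-22) at the high dose. At 24 h it was 4.03-fold and 4.6-fold above the control (adjusted p = 1.49e-34 and 9.51e-42). In this bulk measure, fewer cells of a type and less RNA per cell cannot be told apart.

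Dose moved Dnmt1 at 4 h only in this test. The 80 µg level was 0.54 of the 0.8 µg level at 4 h (log2 fold change -0.89, SE 0.19, adjusted p = 9.63e-05), with no overlap between the groups. At 12 h and 24 h the log2 fold changes were 0.33 (SE 0.15, adjusted p = 0.223) and 0.19 (SE 0.15, adjusted p = 0.584), and the groups overlapped. The 12 h value rested on the 0.8 µg replicate 3 library, the highest of its group: without it the log2 fold change was 0.55 with adjusted p = 0.00555. This library also stood apart from the others of its group. The chi-square per degree of freedom was 14.8 and 14.4 between it and replicates 1 and 2, and 3.35 between those. Within the other groups it was at most 9.49. The dose by time interaction of Dnmt1, a likelihood ratio test over the 18 immunised libraries, had adjusted p = 5.83e-05.

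Uhrf1 spanned 201-fold from its lowest group mean (0.8 µg at 4 h, with 2, 2 and 7 reads) to its highest, and at least 235-fold without replicate 3 of the lowest group, against the floor of 3 counts per library. It had 14.4, 2.03 and 12.9 normalised counts in the control, 2.02, 2.64 and 7.55 with 0.8 µg at 4 h and 3.47, 8.72 and 2.57 with 80 µg at 4 h. These 9 libraries held 2 to 14 reads of the gene each, and the 3 groups overlapped. Its 4 h values against the control missed the threshold at both doses (log2 fold changes -0.99 and -0.82, adjusted p = 0.0524 and 0.0955), and passed without control replicate 2 (0.00474 and 0.00835), without 0.8 µg replicate 3 (0.0232) or 80 µg replicate 2 (0.0293), or with library totals as the scaling (0.0252 and 0.0465). At 12 h it had 142, 112 and 161 with 0.8 µg and 284, 328 and 403 with 80 µg, and at 24 h 626, 616 and 469 with 0.8 µg and 890, 710 and 859 with 80 µg. The 4 later groups lay above the control and were ordered by time and, within each time, by dose, with no overlap between neighbours. The log2 fold changes of Uhrf1 against the control were 3.72 (SE 0.32, adjusted p = 4.72e-28) and 5.01 (SE 0.32, adjusted p = 1.29e-50) at 12 h and 5.76 and 6.27 at 24 h, low dose first. Between doses, Uhrf1 was 2.45-fold higher with 80 µg at 12 h (log2 fold change 1.29, SE 0.19, adjusted p = 2.71e-09). At 24 h its mean was 1.44-fold higher with 80 µg, which missed the threshold (log2 fold change 0.52, SE 0.18, adjusted p = 0.058; 0.0344 with the trimmed mean of M-values (TMM) scaling of edgeR and 0.0124 in a fit of those 6 libraries alone). Its interaction passed narrowly (adjusted p = 0.0472) and was lost with edgeR (0.051), without the filter on low counts (0.0524) with the replicate number as a block (0.145) and without any 1 of 12 of the 18 libraries (up to 0.22, without 0.8 µg 12 h replicate 2).

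Dnmt3a, the de novo methyltransferase, went the other way in time. It had 452.5, 360.0 and 440 normalised counts in the control, 3428, 3098 and 3121 with 0.8 µg at 4 h and 1495, 1741 and 1400 with 80 µg at 4 h. By 12 h it had 832, 684 and 899 with 0.8 µg and 576, 687 and 598 with 80 µg, and at 24 h 623, 548 and 602 with 0.8 µg and 351, 361 and 335 with 80 µg. The 4 h libraries were the highest at each dose, and the 80 µg group at 24 h overlapped only with the control. Dnmt3a was 7.70-fold above the control with 0.8 µg at 4 h (log2 fold change 2.94, SE 0.11, adjusted p = 2.64e-143) and 3.70-fold with 80 µg (1.89, SE 0.12, adjusted p = 1e-58). It was still above the control at 12 h at both doses (log2 fold changes 0.94 and 0.57) and at 24 h with 0.8 µg (0.50, adjusted p = 0.000129), and at 24 h with 80 µg it was at -0.26 (adjusted p = 0.0755; 0.0211 without control replicate 2, and -0.49 with adjusted p = 5.35e-05 under scaling by library totals).

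Dnmt3a was lower with the higher dose at all 3 times. The log2 fold change of 80 µg against 0.8 µg was -1.05 (SE 0.11, adjusted p = 2.12e-20) at 4 h, -0.37 (SE 0.11, adjusted p = 0.0219) at 12 h and -0.76 (SE 0.12, adjusted p = 2.26e-08) at 24 h. The groups did not overlap at 4 h and 24 h. They overlapped at 12 h, where adjusted p was 0.0736 with edgeR, 0.0915 in a fit of those 6 libraries alone and 0.0935 to 0.149 without replicate 1 or replicate 3 of either dose. At 4 h the change stood just past the fold threshold, and without the 80 µg replicate 3 library it came within it (-0.99). The size of the dose effect differed between times (interaction adjusted p = 0.00098).

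Among the Tet enzymes, Tet1 showed the deepest loss. It had 163, 178.5 and 153 normalised counts in the control, 3.03, 2.64 and 2.16 with 0.8 µg at 4 h and 2.32, 0 and 9.43 with 80 µg at 4 h. The 12 h libraries had 43.1, 29.3 and 18.8 with 0.8 µg and 34.7, 27.2 and 19.4 with 80 µg, and at 24 h 95.4, 122 and 144.5 with 0.8 µg and 38.4, 91.2 and 80.1 with 80 µg. The control was the highest group, and the groups rose again with time after 4 h. All 3 libraries of the 0.8 µg group at 4 h held at most 3 reads, so that Tet1 was at least 48.4-fold lower than in the control there (against the floor of 3 counts per library). At the high dose the 4 h libraries held 2, 0 and 11 reads, and the log2 fold change against the control was -4.98 (SE 0.46, adjusted p = 1.78e-23). Without replicate 3, which carries most of that group's mean, Tet1 was at least 51.6-fold lower than in the control, against the same floor. At 12 h the level was 5.41-fold and 6.08-fold lower. The 24 h log2 fold change was -1.19 with 80 µg (SE 0.33, adjusted p = 0.00132) and -0.44 with 0.8 µg (SE 0.33, adjusted p = 0.31). No dose comparison of Tet1 passed the test (adjusted p = 0.699 at 4 h, 0.898 at 12 h and 0.191 at 24 h), although the 2 groups did not overlap at 24 h. The summed CD4+ T cell markers and Ighm were also lowest at 4 h and 12 h and higher in the control and at 24 h, and their part in the result was not tested.

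Tet2 was the only Tet gene with means above the control at 4 h. It had 279, 274 and 304 normalised counts in the control, 368, 385 and 310 with 0.8 µg at 4 h and 399, 406 and 401 with 80 µg at 4 h. At 12 h it had 143, 155 and 161 with 0.8 µg and 106, 136 and 118 with 80 µg, and at 24 h 154, 178 and 266 with 0.8 µg and 215, 166 and 195 with 80 µg. Every 12 h and 24 h library lay below every control library. At 4 h Tet2 rose by 0.49 with 80 µg (SE 0.16, adjusted p = 0.00466; 0.0762 with library totals as the scaling), and its value with 0.8 µg was 0.31 (SE 0.16, adjusted p = 0.0948; 0.0491 without 0.8 µg replicate 3). Its log2 fold changes were -0.89 and -1.24 at 12 h (adjusted p = 4.6e-07 and 2.17e-12) and -0.52 and -0.57 at 24 h (adjusted p = 0.00705 and 0.00208). The 24 h value with 0.8 µg missed the adjusted p threshold without the replicate 1 library of that group (adjusted p = 0.0957) or without replicate 2 (0.0545).

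Tet3 had 855.5, 819 and 935 normalised counts in the control, 764, 792 and 713 with 0.8 µg at 4 h and 574, 557 and 506 with 80 µg at 4 h. At the later times its 12 libraries ranged from 431 to 610. Each control library was above each library of the immunised groups. The 4 h log2 fold change of Tet3 was -0.67 with 80 µg (SE 0.10, adjusted p = 1.15e-10) and -0.20 with 0.8 µg (SE 0.10, adjusted p = 0.0767; 0.00482 under scaling by library totals), and the doses differed at that time (log2 fold change -0.47, SE 0.10, adjusted p = 7.04e-05). At 12 h and 24 h the log2 fold changes against the control lay between -0.93 and -0.73 and all 4 passed the test. Of the Tet genes, Tet3 had the narrowest range, 1.92-fold between the lowest and highest group means, against 3.36-fold for Tet2 and at least 48.4-fold for Tet1.

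Ezh2, the catalytic subunit, rose at every time and dose. It had 177, 216 and 206 normalised counts in the control, 530, 490 and 424 with 0.8 µg at 4 h and 457, 480 and 496 with 80 µg at 4 h. By 12 h it had 823, 850 and 1037 with 0.8 µg and 941, 1137 and 1156 with 80 µg, and at 24 h 1405, 1522 and 1023 with 0.8 µg and 1468, 1447 and 1462 with 80 µg. The control, the 4 h groups and the later groups formed 3 steps without overlap between them, and the doses overlapped at every time. Against the control the log2 fold changes were 1.26 and 1.25 at 4 h, 2.17 and 2.42 at 12 h and 2.71 and 2.86 at 24 h, for 0.8 µg and 80 µg (SE 0.14 each, highest adjusted p = 1.7e-17). The dose comparisons gave -0.01 (SE 0.14), 0.26 (SE 0.13) and 0.15 (SE 0.13) at the 3 times, with adjusted p = 0.986, 0.287 and 0.632.

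Suz12 was higher at 4 h and at both later times, with no further step that passed the test. It had 697, 709 and 694 normalised counts in the control and between 1179 and 1729 in the 18 immunised libraries. Each of those 18 libraries exceeded each control library, and the 6 immunised groups overlapped each with its neighbour in the order of means. The log2 fold changes against the control lay between 0.95 (0.8 µg at 12 h) and 1.21 (80 µg at 24 h), with SE 0.11 in each and adjusted p of at most 6.21e-16. The dose comparisons gave 0.01, 0.08 and 0.10 on the log2 scale at 4 h, 12 h and 24 h (SE 0.11 each, adjusted p = 0.991, 0.809 and 0.72). The steps from 4 h to 12 h and from 12 h to 24 h passed the test at neither dose, although the later step with 0.8 µg (0.16, adjusted p = 0.237) passed without replicate 3 of its 12 h group (0.0199) or of its 24 h group (0.00343).

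Eed changed less. It had 204, 163 and 227 normalised counts in the control, 290, 265 and 258 with 0.8 µg at 4 h and 339, 277 and 266 with 80 µg at 4 h. The 12 h libraries had 346, 425 and 333 with 0.8 µg and 343, 242 and 328.5 with 80 µg, and at 24 h 232, 244 and 234 with 0.8 µg and 326.5, 288.5 and 362 with 80 µg. The 0.8 µg group was highest at 12 h and just above the control at 24 h, while the 80 µg groups overlapped each other. Eed rose against the control in 5 of 6 groups, by 0.46 to 0.90 on the log2 scale, and the sixth, 0.8 µg at 24 h, had 0.26 (SE 0.16, adjusted p = 0.208). The rise with 0.8 µg at 4 h (0.46, SE 0.16, adjusted p = 0.0107) was lost with library totals as the scaling (adjusted p = 0.15), without control replicate 2 (0.108) and without 0.8 µg 4 h replicate 1 (0.055). At 24 h Eed was 1.38-fold higher in the mean with 80 µg, which missed the threshold (log2 fold change 0.46, SE 0.16, adjusted p = 0.0518; 0.0302 with TMM scaling and 0.0432 without 80 µg replicate 2). The interaction had adjusted p = 0.0275, and it was 0.14 with library totals as the scaling and missed the threshold without any 1 of 7 libraries (up to 0.152, without 0.8 µg 12 h replicate 2).

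Kdm6b, the demethylase that opposes Ezh2, peaked at 4 h and fell below the control by 24 h. It had 190, 246 and 265.5 normalised counts in the control, 1684, 1827 and 1954 with 0.8 µg at 4 h and 2491, 2585 and 2469 with 80 µg at 4 h. At 12 h it had 325.5, 281 and 401.5 with 0.8 µg and 222, 230 and 234 with 80 µg, and at 24 h 76.9, 84.9 and 135 with 0.8 µg and 57.0, 54.5 and 56.7 with 80 µg. The doses changed order after 4 h and did not overlap at any time, and the 80 µg group at 12 h lay within the range of the control. Against the control Kdm6b was 7.79-fold and 10.8-fold higher at 4 h for 0.8 µg and 80 µg (log2 fold changes 2.95 and 3.42, SE 0.14 each, adjusted p = 5.37e-95 and 6.66e-128). At 24 h its log2 fold changes were -1.23 (SE 0.16, adjusted p = 5.8e-13) and -2.04 (SE 0.17, adjusted p = 3.37e-31).

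The dose effect on Kdm6b turned with time. With 80 µg against 0.8 µg the log2 fold change was 0.46 (SE 0.13, adjusted p = 0.00492) at 4 h, -0.55 (SE 0.14, adjusted p = 0.00474) at 12 h and -0.81 (SE 0.18, adjusted p = 0.000474) at 24 h. Its interaction had the lowest adjusted p of the 10 genes (9.04e-09). Each of the 3 dose effects kept its direction but missed the threshold without a library: 0.8 µg replicate 1 at 4 h (adjusted p = 0.0601), 0.8 µg replicate 3 at 12 h (0.0685) and 0.8 µg replicate 3 at 24 h (0.0858; 0.062 in a fit of those 6 libraries alone). The 2 regulatory T cell markers moved with dose as well, at 12 h and 24 h through Ikzf2, and their sums were 16.6 to 21.8 CPM with 0.8 µg and 24.4 to 31.0 CPM with 80 µg at 4 h. They were 110.1 to 136 CPM with 0.8 µg against 38.0 to 51.5 CPM with 80 µg at 12 h, and 315 to 596 CPM against 153 to 185 CPM at 24 h. Ikzf2 had means of 396 and 121 normalised counts at 12 h and 1454 and 584 at 24 h, for 0.8 µg and 80 µg (log2 fold changes -1.69 and -1.30, adjusted p = 4.24e-14 and 3.03e-09). Foxp3, the defining factor of these cells, had 3.92 and 17.8 at 4 h (1.89, adjusted p = 0.0118), 11.5 and 23.3 at 12 h (0.88, adjusted p = 0.384) and 106 and 92.9 at 24 h (-0.18, adjusted p = 0.902). The 2 CD8+ T cell markers, Cd8a and Cd8b1, summed to 15.2 to 30.9 CPM with 0.8 µg and 20.3 to 22.8 CPM with 80 µg at 4 h, 43.6 to 51.3 against 13.1 to 22.7 at 12 h and 34.3 to 40.9 against 20.1 to 28.75 at 24 h. Between doses Cd8a fell with 80 µg at both of these later times (log2 fold changes -3.58 and -2.51, adjusted p = 2.84e-08 and 0.00301) and Cd8b1 at 12 h (-1.02, adjusted p = 0.00154). The part of either marker list in the dose results of the 10 genes was not tested.

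**Figure D2:**
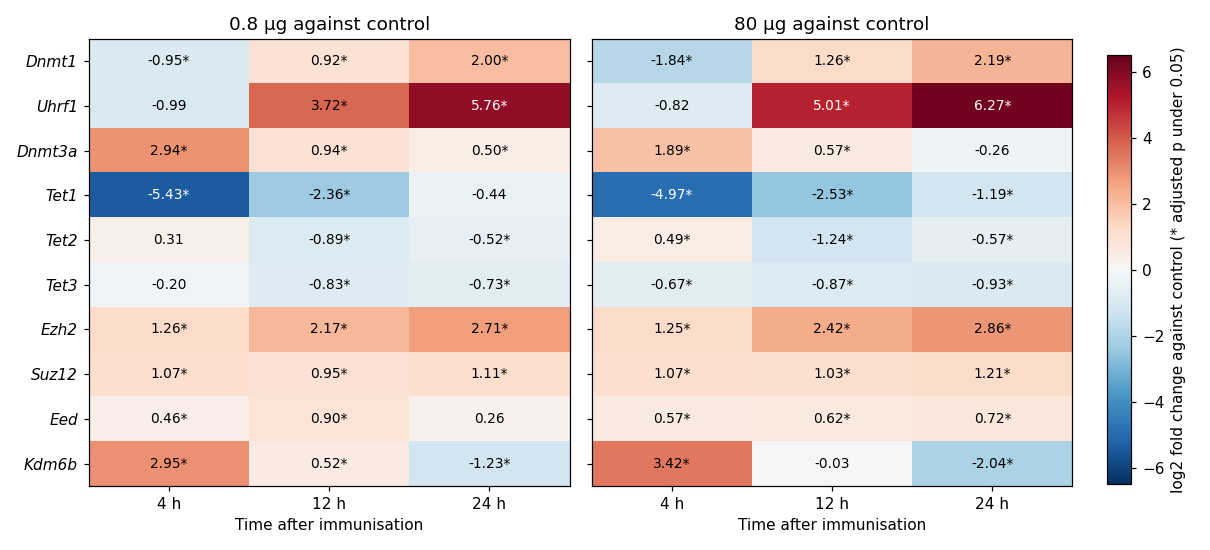
Shrunken log2 fold changes of each gene against the control for 0.8 µg (left) and 80 µg (right) at 4 h, 12 h and 24 h, red for higher and blue for lower, with stars at adjusted p under 0.05. Ezh2 and Suz12 are higher throughout, Uhrf1 reaches 6.27 at 24 h with 80 µg, and the fitted value of Tet1 with 0.8 µg at 4 h rests on counts at the floor.

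Against the control, 5 members were called with 0.8 µg at 4 h (Dnmt3a, Ezh2, Suz12 and Kdm6b higher, Tet1 lower), where 40.7% of all genes tested were called (17.3% were higher than the control and 23.4% lower). With 80 µg at 4 h, 6 were called, the same 5 and Dnmt1, which was lower, against 43.5% of all genes (18.4% higher and 25.1% lower). At 12 h, 3 were called with 0.8 µg (Uhrf1 and Ezh2 higher, Tet1 lower) against 37.7% of all genes (17.2% higher and 20.5% lower), and 5 without replicate 1 or replicate 2 of that group. With 80 µg at 12 h, 6 were called (Dnmt1, Uhrf1, Ezh2 and Suz12 higher, Tet1 and Tet2 lower) against 37.9% (17.8% and 20.1%). At 24 h, 5 were called with 0.8 µg (Dnmt1, Uhrf1, Ezh2 and Suz12 higher, Kdm6b lower) against 17.3% (11.5% and 5.84%), and 6 with 80 µg (the same genes and Tet1, which was lower) against 20.2% (12.3% and 7.91%). With adjusted p alone, 7, 10 and 8 members passed with 0.8 µg and 9, 9 and 9 with 80 µg at 4 h, 12 h and 24 h, where the shares of all genes were 54.6%, 53.1% and 36% and 57.1%, 52.7% and 39.1%. The median log2 fold change of the 10 genes against the control was 0.38, 0.91 and 0.38 with 0.8 µg and 0.53, 0.60 and 0.23 with 80 µg, beside -0.13, -0.11 and 0 and -0.15, -0.11 and -0.0032 for all genes tested. These 6 comparisons share the control libraries.

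From 4 h to 12 h, 6 members were called with 0.8 µg (20.5% of all genes, 12.6% higher and 7.98% lower) and 7 with 80 µg (24.8%, 15.7% and 9.1%). Dnmt1, Uhrf1 and Tet1 were higher and Dnmt3a, Tet2 and Kdm6b lower at 12 h at both doses, and Ezh2 was called higher with 80 µg (log2 fold change 1.17, against 0.90 with 0.8 µg, which also passed the test). The largest of these steps was the rise of Uhrf1 at the high dose, with a log2 fold change of 5.83 (SE 0.37, adjusted p = 3.29e-47). From 12 h to 24 h, 4 members were called with 0.8 µg (26.6% of all genes, 17.1% higher and 9.48% lower) and 3 with 80 µg (27.2%, 16.7% and 10.5%). Uhrf1 and Tet1 were higher and Kdm6b lower at both doses, and Dnmt1 was called with 0.8 µg (1.08) and just under the threshold with 80 µg (0.94, adjusted p = 3.68e-09). Over the same step the log2 fold changes were -0.44 and -0.83 for Dnmt3a and 0.54 and 0.43 for Ezh2, and all 4 passed the test, the last of them not under scaling by library totals (adjusted p = 0.0736). With adjusted p alone, 39.1% and 42.9% of all genes passed from 4 h to 12 h and 44% and 44.7% from 12 h to 24 h, and 9 and 7 and then 7 and 7 of the members.

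**Figure D3:**
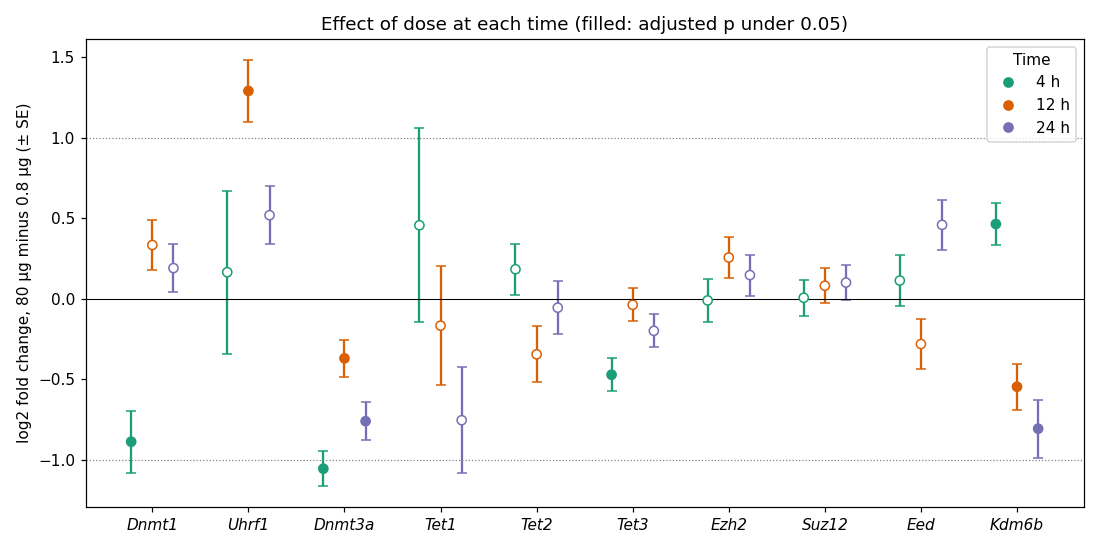
Shrunken log2 fold changes of 80 µg against 0.8 µg with their SE at 4 h, 12 h and 24 h, filled where adjusted p was under 0.05, with dotted lines at 1 and -1. Dnmt3a lies below 0 at all 3 times, Kdm6b lies above 0 at 4 h and below it later, and the values of Ezh2 and Suz12 stay within 0.26 of 0.

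Between doses, 1 member was called at 4 h (Dnmt3a, lower), where 5.85% of all genes were called (3.12% higher and 2.74% lower), 1 at 12 h (Uhrf1, higher) against 2.79% (1.83% and 0.96%), and 0 at 24 h against 1.56% (0.89% and 0.673%). Without 80 µg replicate 3 the 4 h count was 0, and without 80 µg replicate 1 it was 2. With adjusted p alone in DESeq2, Kdm6b rose and Dnmt1, Dnmt3a and Tet3 fell with dose at 4 h (12% of all genes passed). On the same basis Uhrf1 rose and Dnmt3a and Kdm6b fell at 12 h (6.27%), and Dnmt3a and Kdm6b fell at 24 h (5.93%). DESeq2 gave an unadjusted p under 0.05 also to Dnmt1, Tet2 and Ezh2 at 12 h (0.0302, 0.0482 and 0.0467) and to Uhrf1, Tet1 and Eed at 24 h (0.00369, 0.0228 and 0.00312), and edgeR, like DESeq2, called 0 members at 24 h. The interaction passed for 5 of 10 members, Kdm6b, Dnmt1, Dnmt3a, Eed and Uhrf1, against 10.4% of all genes. It passed for 3 of 10, without Eed and Uhrf1, when replicate 2 of either dose at 12 h, replicate 1 or 2 of 0.8 µg at 24 h, or replicate 1 or 3 of 80 µg at 24 h was left out. It had adjusted p of 0.0913 for Tet3 (0.0126 without 0.8 µg replicate 3 at 24 h), 0.353 for Tet2, 0.522 for Tet1, 0.674 for Ezh2 and 0.933 for Suz12.

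**Figure D4:**
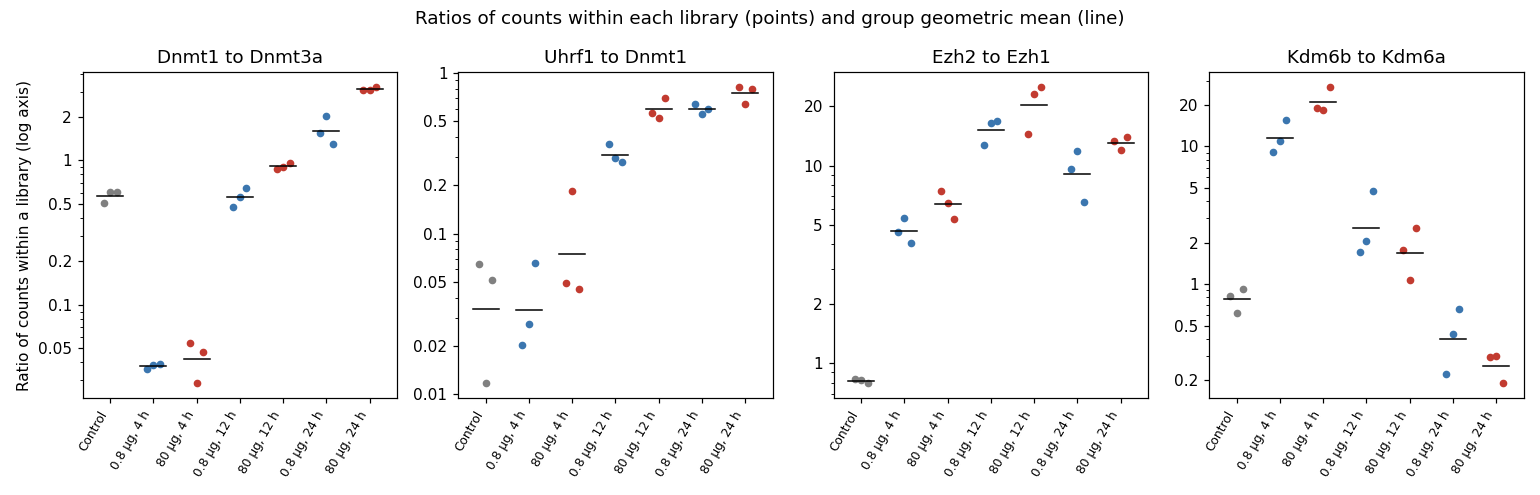
Ratios of counts of paired genes within each library (log axis) by group, with group geometric means as lines. Dnmt1 to Dnmt3a is lowest at 4 h and highest at 24 h, Ezh2 to Ezh1 peaks at 12 h, and Kdm6b to Kdm6a is highest at 4 h and lowest at 24 h.

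Ratios within a library do not depend on the scaling between libraries, and they are read here across groups only, since the 2 genes of a ratio may be counted with different efficiency. The ratio of Dnmt1 to Dnmt3a counts (0.5 added to each) had a geometric mean of 0.57 in the control, 0.038 and 0.042 at 4 h, 0.55 and 0.91 at 12 h and 1.60 and 3.13 at 24 h, for 0.8 µg and 80 µg. The libraries at 4 h reached at most 0.055 and those of the control at least 0.51. The ratio of Ezh2 to Ezh1, its paralogue in the same complex, went from 0.82 in the control to 4.65 and 6.37 at 4 h, 15.2 and 20.2 at 12 h and 9.04 and 13.1 at 24 h. Ezh1 itself fell from 245 normalised counts in the control to 53.2 with 80 µg at 12 h, so both genes moved in this ratio. The ratio of Kdm6b to its paralogue Kdm6a went from 0.78 in the control to 11.6 and 21.1 at 4 h, 2.55 and 1.69 at 12 h and 0.40 and 0.26 at 24 h. Kdm6a itself had means of 305 normalised counts in the control and 159 and 121 at 4 h, so both genes moved in this ratio too. The doses overlapped at 12 h (1.71 to 4.72 with 0.8 µg and 1.07 to 2.56 with 80 µg) and at 24 h. Without replicate 3 the 12 h value with 0.8 µg was 1.87. The ratio of Uhrf1 to Dnmt1 was 0.034 in the control and 0.60 and 0.75 at 24 h, and its values at 4 h were between 0.020 and 0.18 in single libraries. The control libraries held 14, 2 and 9 Uhrf1 reads and the 4 h libraries fewer than 10 each. Without control replicate 2 the control value was 0.0575, and without replicate 2 of 80 µg at 4 h that group's value went from 0.0745 to 0.0473.

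As a description over the 21 libraries, which share their group structure, the gene most like each member in the authors' log2 values (of 8743 genes) was found by Pearson correlation, and is given here for all members but Kdm6b. For Dnmt1 it was Rfc1, a subunit of the clamp loader (r = 0.99), and for Uhrf1 it was Mcm10, a replication initiation factor, followed by Lig1 and Chaf1a (r = 0.99 each). For Dnmt3a the first were Cd274, which encodes PD-L1 (r = 0.97), Kdm2b, a subunit of a variant Polycomb complex (0.97), and Bcl2l11, a pro-apoptotic gene (0.96). For Tet2 it was Ogt (0.96), whose product binds Tet proteins, and for Tet3 Kmt2d (0.95), a histone H3 lysine 4 methyltransferase. For Tet1 it was Eif4e3 (0.97), for Ezh2 Cox5b (0.97), for Suz12 Usp1 (0.96) and for Eed Snrpf (0.85). Within the 10 genes, the highest of the 45 pairs was Dnmt1 with Uhrf1 (0.94), followed by Dnmt3a with Kdm6b (0.88), and the lowest were Dnmt1 with Kdm6b (-0.94) and Tet3 with Ezh2 (-0.87).

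Lists of related genes were counted against the control, where their median log2 fold changes at 4 h with 0.8 µg and 80 µg stood beside -0.13 and -0.15 for all genes. The medians were 0.62 and 0.65 for partners of the DNA methyltransferases, -1.18 and -1.20 for methyl-CpG readers, 1.40 and 1.47 for DNA demethylation partners and 1.35 and 1.91 for methyl donor and oxoglutarate supply. Those of Polycomb repressive complex 1 were 0.14 and -0.02 and those of histone H3 lysine 27 demethylation and H2A deubiquitination 0.32 and 0.36. Of the methyltransferase partners at 4 h, 3 of the 8 tested passed both thresholds upward with 0.8 µg and 4 with 80 µg, with 0 downward, beside the 17.3% higher and 23.4% lower of all genes with 0.8 µg and 18.4% and 25.1% with 80 µg. At 12 h and 24 h 3 or 4 were higher and 0 lower in each group, where 17.2% and 17.8% of all genes were higher at 12 h and 11.5% and 12.3% at 24 h. The shares of all genes lower were 20.5% and 20.1% at 12 h and 5.84% and 7.91% at 24 h. Cdca7 and Hells, which together remodel nucleosomes for methylation, rose against the control at 12 h by 5.08 (SE 0.28) and 4.06 (SE 0.20) on the log2 scale with 0.8 µg and by 4.88 and 4.48 with 80 µg. Dnmt3b, the other de novo methyltransferase, rose by 1.98 with 0.8 µg and 2.04 with 80 µg at 4 h (SE 0.24 each). Its mean was 40.0 normalised counts in the control and 159 and 166 at 4 h, and 39.4 and 35.5 at 24 h. Among 8 methyl-CpG readers, 1 was called higher and 5 lower at 4 h at each dose, beside the same shares, with median log2 fold changes of -1.18 and -1.20. Mbd4, a thymine glycosylase, was at -3.40 and -4.22 on the log2 scale at 4 h, where libraries held 4 to 10 and 2 to 7 reads of it, and at 1.42 and 1.85 at 24 h, while Mbd3, a subunit of the NuRD complex, rose by 1.40 and 1.56 at 4 h.

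Of the 8 DNA demethylation partners tested, 4 were called higher at 4 h at each dose and 1 lower with 0.8 µg and 2 with 80 µg, where 17.3% and 18.4% of all genes were higher and 23.4% and 25.1% lower. Gadd45b, a stress-inducible gene tied to active demethylation, rose from 15.8 normalised counts in the control to 2090 with 0.8 µg and 1618 with 80 µg at 4 h (log2 fold changes 6.97 and 6.60, SE 0.26 each). Between doses it fell by 1.51 with 80 µg at 24 h (SE 0.20, adjusted p = 2.59e-11), whereas Gadd45g rose by 1.72 with 80 µg at 4 h (SE 0.33, adjusted p = 4.89e-06). The other gene of this list called between doses was Cxxc5, called lower with 80 µg at all 3 times and named after its values were seen. It rests on few reads, 0 to 5, 3 to 8 and 4 to 5 in the 80 µg libraries at 4 h, 12 h and 24 h against 14 to 20, 13 to 50 and 10 to 31 with 0.8 µg (adjusted p = 0.00121, 0.00105 and 0.00678). Among 13 genes of methyl donor and oxoglutarate supply, the 4 h calls were 10 upward and 2 downward with 0.8 µg and 8 and 3 with 80 µg, beside these shares. At 24 h 7 and 8 were higher and 0 lower, where 11.5% and 12.3% of all genes were higher and 5.84% and 7.91% lower. Shmt1, which feeds serine into the folate cycle, rose from 9.59 normalised counts to 938 and 1059 at 4 h. Idh2, which makes oxoglutarate in mitochondria, was at -2.5 and -2.85 on the log2 scale against the control at 4 h.

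Of 9 further subunits of Polycomb repressive complex 2, 2 rose and 2 fell past the fold threshold at 4 h with 0.8 µg, and 3 and 2 with 80 µg. These counts stand beside 17.3% of all genes higher and 23.4% lower with 0.8 µg and 18.4% and 25.1% with 80 µg, and the medians of the list were 0.34 and 0.29. Rbbp7, a histone-binding subunit, rose by 1.23 to 1.51 on the log2 scale in all 6 comparisons with the control, and Phf1 fell in all 6, from 216 normalised counts in the control to 6.12 and 4.46 at 4 h and 52.5 and 27.6 at 24 h. Epop was higher at 4 h and 12 h, by 2.62 to 3.59, and Phf19, which recruits the complex to its targets, was 4.23 and 4.05 higher at 24 h, from 7, 1 and 0 reads in the control libraries. Without control replicate 1 the fitted values of Phf19 were 5.21 and 5.03. The control then held 1 and 0 reads, below the floor of 3 counts, so these values give no exact fold. Among 21 genes of Polycomb repressive complex 1, the 4 h calls were 7 upward and 5 downward with 0.8 µg and 5 and 6 with 80 µg, near the same shares of all genes except for the 7. Kdm2b rose by 4.30 and 3.39 there, while Cbx8 had -2.72 and -3.13, with 1 to 10 and 3 to 6 reads per library. Between doses, Cbx6 and Bcor were lower with 80 µg at 4 h (log2 fold changes -1.29 and -1.22, SE 0.20 and 0.17), and no other Polycomb gene of either list was called at any time. Of all genes, 2.74% were lower and 3.12% higher with 80 µg at 4 h, and 2.79% and 1.56% were called at 12 h and 24 h.

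Among 6 genes of histone H3 lysine 27 demethylation and H2A deubiquitination, 2 were called higher and 1 lower at 4 h with 0.8 µg and 2 and 2 with 80 µg, 1 and 1 and then 1 and 2 at 12 h, and 1 and 0 at 24 h at each dose, and the list medians at 12 h were -0.59 and -0.71, beside -0.11 for all genes at each dose. The shares of all genes higher and lower were 17.3% and 23.4% with 0.8 µg and 18.4% and 25.1% with 80 µg at 4 h, 17.2% and 20.5% and then 17.8% and 20.1% at 12 h, and 11.5% and 5.84% and then 12.3% and 7.91% at 24 h, so that in a list of 6 genes most of these counts lie near the background. Foxk2 was called higher in all 6 comparisons with the control, by 1.19 to 2.32. Foxk1 was called lower at 4 h (-1.22 and -1.43) and with 80 µg at 12 h (-1.45), and Kdm6a with 80 µg at 4 h (-1.30) and at 12 h at both doses (-1.11 and -1.05). Among 11 genes of the complexes that methylate histone H3 lysine 4, 2 were higher and 2 lower past the threshold at 4 h with 0.8 µg and 2 and 3 with 80 µg, near the shares of all genes (17.3% and 23.4%, then 18.4% and 25.1%), with medians of -0.35 and -0.37. At 12 h 2 were higher and 4 lower at each dose, where 17.2% and 17.8% of all genes were higher and 20.5% and 20.1% lower. At 24 h 1 was higher and 3 lower at each dose, beside 11.5% and 12.3% higher and 5.84% and 7.91% lower. Kmt2c fell in all 6 comparisons, with log2 fold changes from -3.13 to -1.47. Replication genes were counted because Dnmt1 and Uhrf1 act at the fork. Of 20, with 0.8 µg 1 was higher and 3 were lower at 4 h, 19 higher and 1 lower at 12 h and 20 higher at 24 h, and with 80 µg 4 higher and 2 lower, 19 higher and 20 higher. Of all genes, 17.3% and 18.4% were higher at 4 h, 17.2% and 17.8% at 12 h and 11.5% and 12.3% at 24 h. Their median log2 fold change against the control was 0.26 and 0.42 at 4 h, 2.48 and 2.96 at 12 h and 3.33 and 3.50 at 24 h. Between doses 4 replication genes were called higher with 80 µg at 12 h (1.83% of all genes) and 0 at 4 h and 24 h, and E2f2 and Rrm2 rose most at 12 h (log2 fold changes 2.53 and 2.02). The other 2, named after their values were seen, were Cdc6 (1.37) and E2f1 (1.08). The dose effect on E2f2 at 12 h was not a rise above the control. Its means were 73.52 normalised counts in the control, 12.73 with 0.8 µg and 75.99 with 80 µg at 12 h. With 0.8 µg at 12 h it was called lower than the control (log2 fold change -2.46, adjusted p = 2.63e-15).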

How the data were processed

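RNA of sorted splenic CD4+ T cells was sequenced from 21 mice, 3 in each of 7 groups, as 3′ mRNA libraries, 1 per mouse, which were combined only for sequencing. The cells of each replicate mouse carried a CD4 dye of their own, which allowed several mice to be sorted together. Reads were trimmed, aligned with STAR 2.5.2a to GRCm38 and counted per gene with HTSeq by the authors, and the annotation release and strand setting are not given in the sources used here. The deposited counts are raw, and the authors also deposited rlog values, which are on a log2 scale and served only for correlations here. Columns of no sample of the study numbered 0. Counting 3′ ends allows no comparison of levels between genes. PCR copies are not independent molecules, so floors of 3 counts cover counting error only.

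Counts of 15300 of 47643 genes with at least 10 reads over all libraries were fitted with DESeq2 1.42.0 in R 4.3.3 in a joint model of the 7 groups, with Wald tests, Benjamini-Hochberg adjustment and shrunken log2 fold changes, for 13 comparisons. The adjustment covered the genes left by the independent filtering on mean count and the outlier check of DESeq2, 9663 (dose at 24 h) to 13814 (80 µg at 12 h against the control), and these are all genes tested in a comparison. The interaction was a likelihood ratio test over 18 libraries, adjusted over 9958 genes. Alternatives were edgeR 4.0.16 (quasi-likelihood test, TMM), 2 other scalings, no filter, unshrunken fold changes, adjusted p alone, only the groups compared, the replicate number as a block and each library left out. Tests ran on simulated data first. Members and gene lists were chosen with earlier results of these data known. Of each list, up to 2 called genes in each direction were named per comparison, ranked by fold change, among genes averaging 20 normalised counts or more over the samples compared; the 3 genes most like each member were found over the rlog values. Some genes that these rules name are not reported here. Promoter sequences were read from RefSeq and gene positions from the GRCm38 annotation. Figures were drawn with matplotlib 3.10.9.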

Additional observations from a re-analysis of the deposited data

Results flagged for a closer look

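The effect of dose differed between times for 5 of the 10 genes, by the dose by time interaction of DESeq2 over the 18 immunised libraries. This interaction passed for 10.4% of all genes tested. Kdm6b had adjusted p = 9.04e-09, with log2 fold changes of 80 µg against 0.8 µg of 0.46 at 4 h, -0.55 at 12 h and -0.81 at 24 h. Dnmt1 had adjusted p = 5.83e-05, with -0.89, 0.33 and 0.19 at these times. Dnmt3a had adjusted p = 0.00098, with -1.05, -0.37 and -0.76. Eed had adjusted p = 0.0275, with 0.11, -0.28 and 0.46, and Uhrf1 had adjusted p = 0.0472, with 0.17, 1.29 and 0.52. The last 2 depended on the setting: Uhrf1 missed the threshold with edgeR (0.051), without the filter on low counts (0.0524), with the replicate block (0.145) and without any 1 of 12 libraries, and Eed with library totals as the scaling (0.14) and without any 1 of 7 libraries. Since the sorting gate moved with time, time and gate cannot be told apart in these differences.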

How the results depend on the processing

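Without the fold threshold, 4, 3 and 2 members passed for dose at 4 h, 12 h and 24 h, beside 12%, 6.27% and 5.93% of all genes. With 0.8 µg against the control, 10 and 8 members passed at 12 h and 24 h (53.1% and 36% of all genes). From 12 h to 24 h, 7 members passed at each dose (44% of all genes with 0.8 µg and 44.7% with 80 µg). Fitting only the libraries compared called 5 members with 0.8 µg against the control at 12 h. Leaving out 1 library gave 0 to 2 members for dose at 4 h, 3 to 5 with 0.8 µg against the control at 12 h and 3 to 5 with an interaction. Over all genes, dropping the fold threshold moved the dose counts from 635, 311 and 151 to 1301, 699 and 573, the counts against the control at 24 h from 2185 and 2615 to 4551 and 5048, and those of the time steps from 2532, 3434, 3130 and 3601 to 4822, 5689, 5415 and 5907. Fitting only the libraries compared gave 139 and 78 genes for dose at 12 h and 24 h. The cause of these shifts was not tested, beyond the lower threshold and fewer samples by construction. Of 130 member fold changes, 91 passed in the main analysis, 20 changed side of the threshold under some alternative, and 16 turned sign, each with adjusted p of at least 0.173 in the main analysis. Scaling by library totals shifted comparisons by up to -0.24 on the log2 scale. Replicate numbers were shared between groups, and no pairing was modelled in the main analysis. Same-number correlations ran from -0.17 to 0.21 and exceeded 0.1 for every pair in 0 of 13 comparisons. They were above all cross-number values in 1 of 13 (80 µg, 12 h against 4 h). Deviations taken within groups of 3 give weak correlations, so they cannot decide whether samples of 1 number shared a sort or processing batch. With the replicate block the members called stayed at the same number in all 13 comparisons, 4 had an interaction (Uhrf1 missed it, adjusted p = 0.145), and the dose counts over all genes were 611, 288 and 138. Depth limits Tet1 and Uhrf1 at 4 h, where libraries held 0 to 11 reads of either gene.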
